A study of Mus musculus with 2 samples.

Results

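Arg1-high C1q-low macrophages are a population of tumour-infiltrating myeloid cells, cut out of 2 single-cell libraries by gene counts. A unique molecular identifier (UMI) is a tag that marks 1 captured RNA molecule. A barcode was a member if it had at least 200 detected genes, at most 10% mitochondrial UMIs, at least 5 UMIs of Lyz2 (lysozyme, a myeloid gene), at least 5 of Arg1, fewer than 15 over C1qa, C1qb and C1qc together, at most 1 of Cxcl9, and none of Flt3, Cd3d, Cd3e or Cd3g. Of 19580 kept barcodes 2022 were members, 938 of 10014 with anti-PD-1 and 1084 of 9566 with isotype. Members were thus chosen by UMI counts of these genes, whose levels here are a description and not a result.

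The cells came from wild-type C57/BL6 mice carrying Hepa1-6 tumours, a mouse hepatoma line, grown in the liver, and both libraries hold live CD45+ cells (leukocytes) enriched on beads and then sorted. One library is from mice given anti-PD-1, an antibody against the T cell inhibitory receptor PD-1, and the other from mice given an isotype antibody (IgG), which serves as its control. The labels name neither the mice per library nor doses or times. With 1 library per treatment no difference between treatments has a replicate check, no test was possible, and each interval below is a 95% interval for counting error only.

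Macrophages in tumours arise largely from blood monocytes that enter and mature there. Arginase 1, the product of Arg1, splits arginine into ornithine and urea, and its induction in mouse macrophages is a classical mark of interleukin-4 signalling and also occurs under low oxygen and in regions of tissue damage. Macrophages rich in C1q, the first component of complement, are a separate and more differentiated tumour population with high antigen presentation. Low oxygen acts through the transcription factor HIF-1, which binds a short DNA core and raises genes of glycolysis and of vessel growth.

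Depth was similar in both libraries. Members had a median of 6978.5 UMIs with anti-PD-1 and 7324 with isotype, and medians of 1940.5 and 1963 detected genes. Neighbouring populations were deeper, at medians of 8297.5 to 9366 UMIs with anti-PD-1 and 9584 to 10092.5 with isotype. Summed over cells the members held 6956069 UMIs with anti-PD-1 and 8689460 with isotype. Levels below are CPM, which is a gene's share of such a sum scaled to a fixed total, and they compare populations for 1 gene and not different genes. The libraries share 140 barcodes, of which 3 were members in both. The automatic doublet threshold marked 1 barcode per library and so had not worked. A doublet score above 0.25 was found in 3.73% of members with anti-PD-1 and 4.43% with isotype.

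Members made up a smaller share of the anti-PD-1 library. They were 9.37% of kept barcodes there (8.80 to 9.95) and 11.3% in the isotype library (10.7 to 12), a difference of -1.96 percentage points (-2.82 to -1.11). Among Lyz2 cells that met the other limits, the share was 20.9% of 4486 cells with anti-PD-1 and 25.3% of 4281 cells with isotype. The second Arg1-high population, with a C1q sum of 15 or more, was likewise smaller with anti-PD-1, at 3.80% of kept barcodes against 5.66% with isotype. Of all Arg1-high cells, the C1q-low members were 71.1% with anti-PD-1 and 66.7% with isotype. Arg1-low C1q-high macrophages (Arg1 under 5, C1q sum of at least 15) were 4.05% with anti-PD-1 and 3.68% with isotype, with a difference of 0.375 points (-0.167 to 0.915). Monocytes were cut by at least 3 UMIs of Ly6c2 and 1 of Csf1r, with Arg1 under 5, a C1q sum under 15 and the other limits of the rule. They were 13.2% with anti-PD-1 and 10.3% with isotype. When each cell was first thinned to 5000 UMIs the member shares were 10.4% with anti-PD-1 and 15.3% with isotype, a difference of -4.84 points over the cells deep enough to keep.

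**Figure D1:**
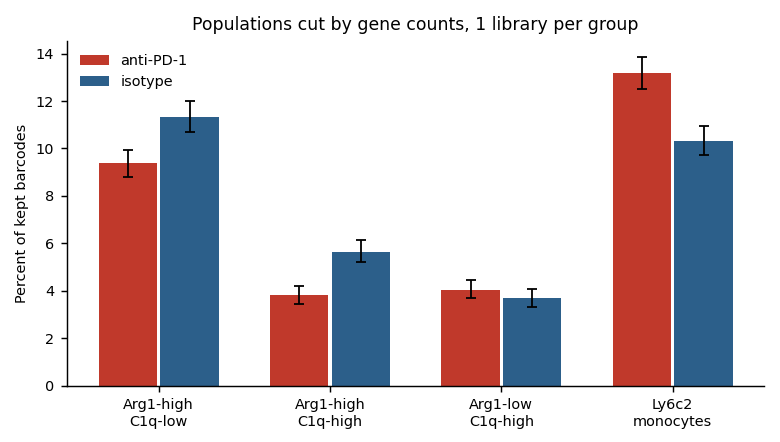
Share of kept barcodes (percent) in the members and 3 neighbouring populations, anti-PD-1 left and isotype right, with exact 95% binomial intervals. Both Arg1-high populations are lower with anti-PD-1 (9.37% against 11.3%, and 3.80% against 5.66%), and the Ly6c2 monocytes are higher (13.2% against 10.3%).

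The rule cuts through graded values, so cells just inside and just outside it are given. The members with only 5 or 6 UMIs of Arg1 numbered 98 with anti-PD-1 and 83 with isotype, and their Spp1 levels were 795 and 612 CPM. The cells just outside, with 3 or 4 UMIs of Arg1, numbered 130 with anti-PD-1 and 111 with isotype, and their Spp1 levels were 502 and 1076 CPM. At the C1q limit, members with a sum of 10 to 14 had Apoe levels of 754 CPM with anti-PD-1 and 544 CPM with isotype. Cells with a sum of 15 to 19 had 1036 CPM with anti-PD-1 and 950 CPM with isotype. Apoe was higher just outside the C1q limit in both libraries, while Spp1 at the Arg1 limit was higher inside with anti-PD-1 and higher outside with isotype.

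The members carried Cd68 and Csf1r, but little of the F4/80 gene. Cd68, a lysosomal protein of macrophages, was detected in 84.0% of members with anti-PD-1 and 86.3% with isotype. Csf1r, the receptor for the macrophage growth factor CSF-1, was detected in 69.9% and 72.1%. Adgre1, which encodes F4/80, was detected in 10.8% of members with anti-PD-1 and 10.7% with isotype, and its level of 17.3 CPM in both was below that of each neighbour. Among Arg1-low C1q-high macrophages Adgre1 stood at 37.7 CPM with anti-PD-1 and 40.5 CPM with isotype. In T cells of the same libraries, which should lack them, Cd68 was detected in 26.5% with anti-PD-1 and 14.6% with isotype, Csf1r in 13.6% and 8.12%, and Adgre1 in 3.08% and 2.17%. T cells had median depths of 8579 UMIs with anti-PD-1 and 6841.5 with isotype, so the members' shares lie above this background at like depth. The monocyte homing receptor Ccr2 was present in 70.3% of members with anti-PD-1 and 68.1% with isotype. Ly6c2 monocytes, which were deeper, had Cd68 in 96.3% in each library. After thinning to 1000 UMIs, Cd68 was detected in 44.2% of monocytes with anti-PD-1 and 39.7% with isotype, against 35.4% and 34.96% of members. Thinned Csf1r was detected in 33.2% of monocytes with anti-PD-1 and 33.1% with isotype, against 20.4% and 18.9% of members. The monocyte cut required at least 1 UMI of Csf1r and the members' rule did not. The Csf1r shares therefore cannot compare these populations. Cd68 and Csf1r thus mark the members as cells of the monocyte and macrophage lineage, and Cd68 does not separate them from monocytes.

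Of the 5 markers of the population, Arg1 was used by the rule and the other 4 were not used directly. Arg1 (mm10 chromosome 10, 24915221 to 24927484, minus strand) had a median of 19 UMIs per member with anti-PD-1 and 22.5 with isotype, with maxima of 147 and 167. Spp1 (chromosome 5, 104435118 to 104441050, plus strand) encodes osteopontin, a secreted matrix and signalling protein. It was detected in 70.1% of members with anti-PD-1 and 68.3% with isotype, at 1712 and 1769.5 CPM. Fn1, which encodes fibronectin (chromosome 1, 71585520 to 71653200, minus strand), was detected in 96.8% of members with anti-PD-1 and 97.1% with isotype, at 2635 and 2526 CPM. Mmp12, an elastase of macrophages (chromosome 9, 7344381 to 7369499, plus strand), was detected in 38.6% and 42.5%, at 409.6 CPM with anti-PD-1 and 464 CPM with isotype. Ccl24 (chromosome 5, 135569937 to 135573049, minus strand) encodes eotaxin-2, a chemokine that draws eosinophils, and was detected in 46.3% of members with anti-PD-1 and 53.2% with isotype. After thinning each cell to 1000 UMIs the Ccl24 shares were 31.1% with anti-PD-1 and 36.3% with isotype, against 1.47% and 2.54% in T cells of the same libraries, which should lack the gene. Fn1 was thus nearly general among the members, while Ccl24 and Mmp12 marked a part of them. Against all other kept barcodes, 136 of 11567 genes (1.18%) were at least 2-fold higher in members in both libraries and 18.6% were above 0. On the other side, 13.4% were at least 2-fold lower and 67.3% below 0. All 5 markers were among the 2-fold higher ones, but they were chosen with earlier results of these data known, so this describes the choice. Against Arg1-high C1q-high cells 4 of the 5 were higher and 1 lower in both libraries (34.3% and 39% of all genes), with 0 at least 2-fold higher (0.554% of all genes). Ccl24 was detected after thinning in 29.9% of those cells with anti-PD-1 and 42.7% with isotype.

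Marker sums of most other cell types were under 25 CPM, and those of dendritic, neutrophil and monocyte genes were higher. Mast cell and basophil genes were not detected at all (0 of 6 genes in both libraries). The eosinophil list summed to 1.73 CPM with anti-PD-1 and 1.27 CPM with isotype, the T and NK list, whose Cd3 genes the rule sets to 0, to 7.19 and 5.98, the B and plasma list to 4.31 and 1.27, the hepatocyte or hepatoma list to 1.15 and 1.27 with Alb at 0, and the erythroid list to 0 and 0.345. Kupffer cell genes, which mark the resident macrophages of the liver, summed to 2.59 CPM with anti-PD-1 and 4.37 CPM with isotype, with the defining genes Clec4f and Vsig4 at 0 in both. The stroma and endothelium list summed to 23.1 CPM with anti-PD-1 and 24.4 CPM with isotype, over 95% of it Pecam1, and the dendritic list, whose Flt3 the rule sets to 0, to 159 and 144 CPM, mostly Bst2. The monocyte list summed to 10132 CPM with anti-PD-1 and 9606 CPM with isotype. Its leading gene was Thbs1 with anti-PD-1 (35.2% of the list's UMIs) and S100a6 with isotype (35.1%). In Ly6c2 monocytes, which were cut by Ly6c2, the list summed to 16196 and 16727 CPM. All 12 neutrophil genes were detected, with a summed 2303 CPM with anti-PD-1 and 2597 CPM with isotype. The median member had none of them and the range ran to 335476 CPM in 1 cell with anti-PD-1 and 245854 CPM in 1 cell with isotype. Members with at least 2 of the 12 genes were 14.4% with anti-PD-1 and 16.1% with isotype, and those with at least 3 were 7.89% and 8.30%. Members with UMIs of at least 2 of Retnlg, Cxcr2 and Csf3r numbered 31 with anti-PD-1 (3.30%) and 28 with isotype (2.58%). With these members left out, the share difference was -1.98 points, and the interferon-gamma median between treatments was 0.53.

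Compared with neighbouring populations inside each library, the members had higher levels of many hypoxia and glycolysis genes, matrix genes and inflammatory mediators, with the smallest differences from the Arg1-high C1q-high cells. Other lists differed as well. For monocyte genes the median log2 ratios over Arg1-high C1q-high cells were 0.65 with anti-PD-1 and 0.74 with isotype. Of 14 such genes 13 were higher in both libraries (34.3% of all genes). Neutrophil medians were 0.61 and 0.81 there (7 of 11 higher), and 2.23 and 1.67 over Arg1-low C1q-high macrophages (10 of 11, 25.1% of all genes). Against these populations cell cycle genes were lower for 8 of 10 (39% of all genes) and 9 of 10 (54.2%). The neighbours were cut by gene counts, so these values describe the cuts and carry no test, and only genes with at least 50 UMIs over both populations in each library are counted. The plot of levels by population gives 12 genes.

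**Figure D2:**
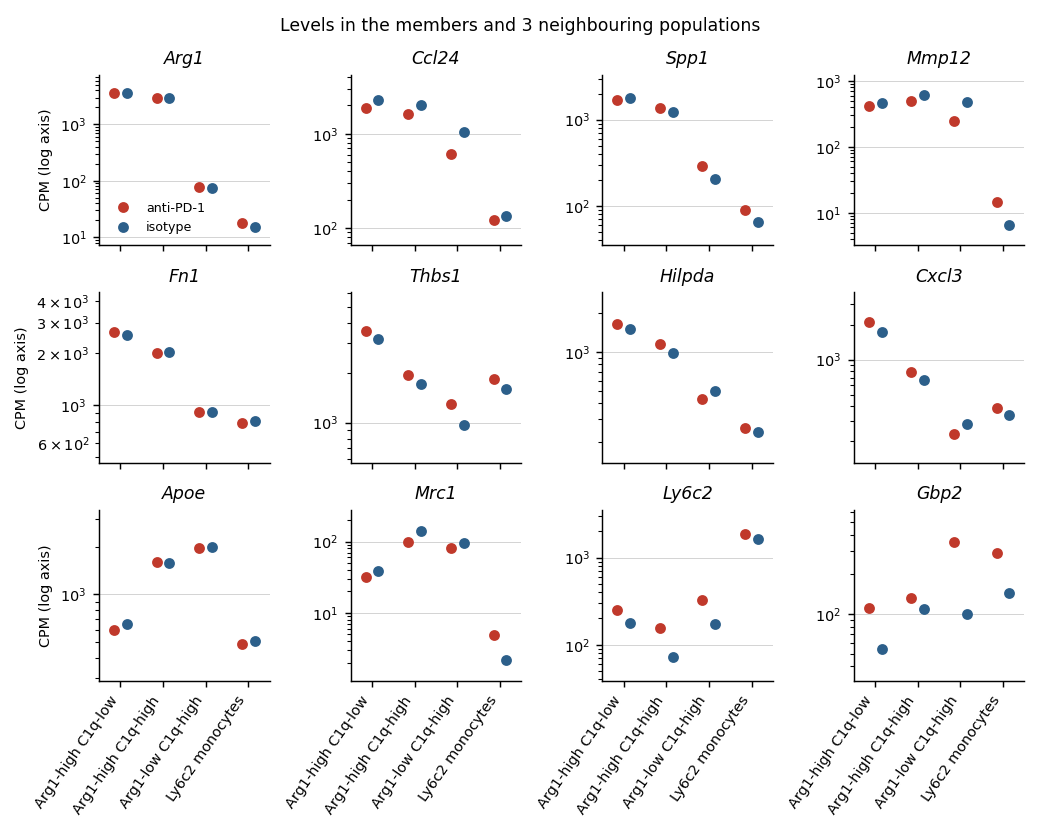
CPM of 12 genes (log axis) in the members and 3 neighbouring populations, anti-PD-1 left and isotype right of each pair, 1 point per library. Hilpda, Cxcl3, Thbs1 and Fn1 are highest in the members, at 1652 and 1497 CPM for Hilpda, while Apoe and Mrc1 are highest in the C1q-high populations and Ly6c2 in the monocytes.

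Hypoxia genes were higher nearly throughout. All 25 measured genes of the list were higher in members than in Arg1-low C1q-high macrophages in both libraries, where 25.1% of all genes were, and 8 of them were at least 2-fold higher, where 1.99% of all genes were. The list medians were 0.78 with anti-PD-1 and 0.77 with isotype on the log2 scale, where the medians of all genes were -0.15 and -0.14. Hilpda (hypoxia-inducible lipid droplet-associated protein, a brake on lipolysis) stood at 1652 CPM in members with anti-PD-1 and 1497 CPM with isotype, against 431 and 495 CPM in Arg1-low C1q-high macrophages. Egln3, a HIF prolyl hydroxylase, stood at 249.6 and 254 CPM in members, against 36.1 and 39.9 CPM in those macrophages. Vegfa, the main growth factor for vessels, stood at 701 and 669.8 CPM in members against 319 and 275 CPM. All 3 were at least 2-fold higher in members in both libraries. Against the Arg1-high C1q-high cells, 24 of 25 hypoxia genes were also higher in both libraries (34.3% of all genes), but 1, Egln3, was at least 2-fold higher (0.554% of all genes). The exception was Mif, a cytokine, with 2122 CPM with anti-PD-1 and 2293 CPM with isotype in members, against 2307 and 2346 CPM. Against Ly6c2 monocytes 24 of 25 were higher (25.2% of all genes) and 12 at least 2-fold higher (3.38% of all genes). There the exception was Pfkfb3, which sets the rate of glycolysis, with 37.4 and 32.9 CPM in members against 41.9 and 35.7 CPM.

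For 3 genes of the hypoxia list, Hilpda, Bnip3 (a mitophagy receptor) and Ldha (lactate dehydrogenase A), the stretches just upstream of a transcript start are shown. Each match to the core of the HIF binding site is in capitals. The sequences are from RefSeq on GRCm38.p6, 250 bases 5′ to 3′ on the gene's strand, and the core searched was ACGTG on either strand (CACGT as read on the other). Where RefSeq lists several starts for a gene, the first whose window holds the core is shown. The start used for Ldha lies inside the GENCODE gene, which begins at 46841475 with another transcript, and that of Hilpda lies inside the gene beginning at 29272488. The windows cover chr6:29272376-29272625 on the plus strand, chr7:138909507-138909756 on the minus strand and chr7:46845554-46845803 on the plus strand.
Hilpda: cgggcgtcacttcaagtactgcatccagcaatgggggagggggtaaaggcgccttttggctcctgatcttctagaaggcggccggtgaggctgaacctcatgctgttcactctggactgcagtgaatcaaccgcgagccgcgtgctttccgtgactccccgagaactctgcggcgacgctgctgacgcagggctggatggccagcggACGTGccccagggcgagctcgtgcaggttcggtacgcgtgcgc
Bnip3: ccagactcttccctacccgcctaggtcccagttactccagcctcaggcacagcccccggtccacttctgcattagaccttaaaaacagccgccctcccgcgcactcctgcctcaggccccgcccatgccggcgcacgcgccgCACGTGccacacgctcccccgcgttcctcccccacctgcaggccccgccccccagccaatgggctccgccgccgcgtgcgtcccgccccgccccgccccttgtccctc
Ldha: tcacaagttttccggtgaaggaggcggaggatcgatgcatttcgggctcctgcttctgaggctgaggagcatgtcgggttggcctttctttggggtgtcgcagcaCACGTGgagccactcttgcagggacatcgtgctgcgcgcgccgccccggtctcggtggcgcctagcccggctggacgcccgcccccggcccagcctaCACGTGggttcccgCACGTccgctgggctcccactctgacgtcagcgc
The Hilpda stretch holds 1 match, starting 43 bases before that start. That of Bnip3 holds 2 overlapping matches, one on each strand, and that of Ldha holds 5, of which 2 pairs overlap. Of the 31 promoters in the table for 23 genes of the hypoxia list, 15 (48.4%) hold the core in this window, where 5444 of all 32851 promoters (16.6%) hold it. The list was chosen as hypoxia genes, so its share describes the list and not the members. A match describes letters only, and no binding was measured.

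Matrix and inflammatory genes were higher too, less uniformly. The gene lists were chosen with earlier results of these data known, and the matrix list holds Mmp12, a marker of the population. The matrix counts thus describe that choice in part. Of 27 matrix and tissue repair genes, 21 were higher in members than in Arg1-low C1q-high macrophages in both libraries (25.1% of all genes) and 12 at least 2-fold (1.99% of all genes), with list medians of 1.04 with anti-PD-1 and 1.24 with isotype. Thbs1 encodes thrombospondin-1, an inhibitor of vessel growth, and stood at 3562 and 3165 CPM in members against 1293 and 972 CPM. Against Ly6c2 monocytes 20 matrix genes were higher (25.2% of all genes) and 12 at least 2-fold (3.38% of all genes). Against Arg1-high C1q-high cells 16 were higher and 6 lower in both libraries, and 2 were at least 2-fold higher, with medians of 0.36 with anti-PD-1 and 0.46 with isotype (34.3%, 39% and 0.554% of all genes were higher, lower and 2-fold higher). Mmp12 had the highest of these ratios, with 409.6 and 464 CPM in members against 14.8 and 6.46 CPM in monocytes. It was not highest in the members, however, since the Arg1-high C1q-high cells had 490.1 CPM with anti-PD-1 and 621 CPM with isotype. Of 18 inflammatory mediators, 16 were higher in members than in Arg1-low C1q-high macrophages in both libraries and 7 at least 2-fold, with medians of 0.83 with anti-PD-1 and 0.90 with isotype. The neutrophil-attracting chemokine Cxcl3 had 2112 CPM with anti-PD-1 and 1719.9 CPM with isotype in members, against 231 and 278 CPM. Il6, a cytokine of the acute phase, had 254 and 171 CPM in members against 52.4 and 26.4 CPM. Against Ly6c2 monocytes 16 mediators were higher and 12 at least 2-fold, with medians of 1.53 with anti-PD-1 and 1.33 with isotype. Against Arg1-high C1q-high cells 15 were higher and 1 at least 2-fold, with medians of 0.41 with anti-PD-1 and 0.62 with isotype. The shares over all genes are those given for the matrix list.

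Further genes were named by a fixed rule on the size of the ratio in both libraries. Inhba, which encodes a subunit of activin A, had 269 CPM with anti-PD-1 and 279.5 CPM with isotype in members, against 118 and 101 CPM in Arg1-high C1q-high cells. Slpi, a secreted protease inhibitor, had 594 and 622 CPM in members against 215 and 236 CPM in those cells. Slpi did not mark the members alone, since the monocytes had 651 and 674 CPM. Tnfrsf9, the co-stimulatory receptor 4-1BB, had 127 CPM with anti-PD-1 and 155 CPM with isotype in members, against 1.23 and 2.09 CPM in monocytes. Lower in members than in Arg1-low C1q-high macrophages were Apoe, at 599 and 655 CPM against 1974 and 1977 CPM, and Selenop, a selenium carrier, at 34.1 and 32.9 CPM against 129.8 and 144.5 CPM.

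Antigen presentation and interferon-gamma genes were lower in members than in C1q-high cells. All 8 measured class II genes were lower than in Arg1-high C1q-high cells in both libraries (39% of all genes), none of them 2-fold (0.68% of all genes). These genes belong to the MHC class II pathway, which presents peptides to CD4 T cells. The same 8 genes were lower than in Arg1-low C1q-high macrophages in both libraries (54.2% of all genes) and 6 at least 2-fold (2.09% of all genes). H2-Aa had 2169 CPM with anti-PD-1 and 2638 CPM with isotype in members, against 5335 and 6252 CPM there. Against Ly6c2 monocytes the order turned, with 7 of 9 class II genes higher in members, and H2-Aa stood at 1044 and 722 CPM in monocytes. Of 22 measured genes of the interferon-gamma response, 18 were lower than in Arg1-high C1q-high cells and 1 at least 2-fold, 21 lower than in Arg1-low C1q-high macrophages, 8 of them at least 2-fold, and 16 lower than in monocytes (61.1% of all genes), 10 of them at least 2-fold (5.83% of all genes). Cxcl9 is itself an interferon-gamma target and was limited by the rule, and the part of that limit in these values was not tested. Type I interferon genes were lower for 16 of 17 against Arg1-low C1q-high macrophages and against monocytes. Against Arg1-high C1q-high cells they showed no common direction, with 5 higher and 4 lower of 13 and medians of 0.14 with anti-PD-1 and -0.19 with isotype. MHC class I genes were lower for 13 of 13 against Arg1-low C1q-high macrophages and 12 of 13 against monocytes.

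**Figure D3:**
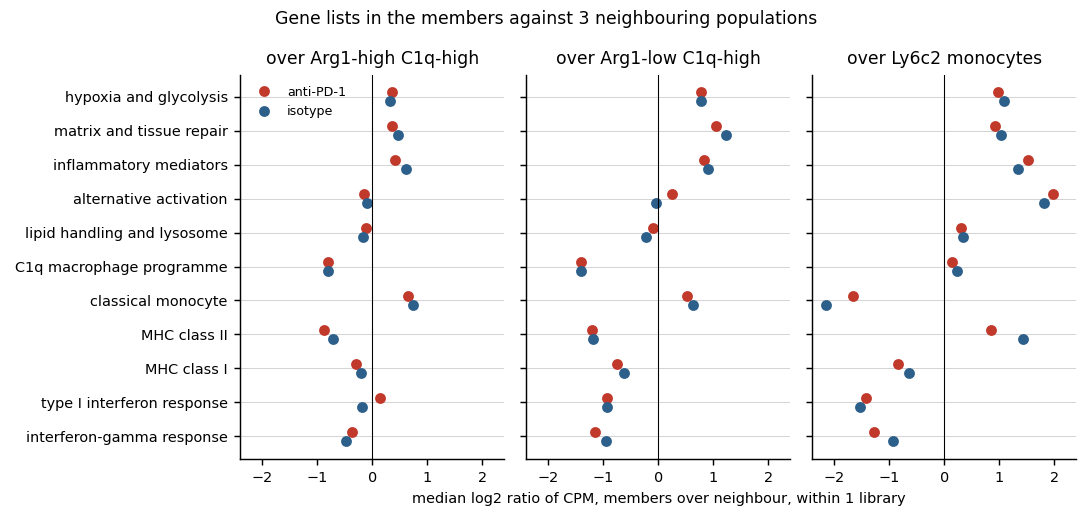
Median log2 ratio of CPM, members over each neighbour within 1 library, for 11 gene lists, with anti-PD-1 as the upper point and isotype as the lower. Hypoxia, matrix and inflammatory lists lie right of 0 in all 3 panels, the interferon-gamma list lies left of 0 in all 3, and MHC class II changes side between the C1q-high cells and the monocytes.

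Alternative activation genes did not differ as a block. Against Ly6c2 monocytes 8 of 12 were higher in members (25.2% of all genes) and 7 at least 2-fold (3.38% of all genes), Mgl2 and Mrc1 among them. Both are lectins of interleukin-4-stimulated macrophages, and Mrc1 had 31.5 CPM with anti-PD-1 and 38.9 CPM with isotype in members against 4.86 and 2.19 CPM in monocytes. Both were at least 2-fold lower in members than in Arg1-high C1q-high cells, with Mgl2 at 43.8 CPM with anti-PD-1 and 91.0 CPM with isotype in members against 199.96 and 309.5 CPM, and Mrc1 at 97.5 and 139 CPM in those cells. Retnla, another interleukin-4 target, had no UMI in any member, a count that allows up to 3 UMIs per library. In the arginine and polyamine list, apart from Arg1, the arginine transporter Slc7a2 had 64.8 and 73.2 CPM in members against 20.8 and 22.3 CPM in Arg1-low C1q-high macrophages. Nos2, which makes nitric oxide from the same arginine, had 33.1 CPM with anti-PD-1 and 30.04 CPM with isotype in members against 2.82 and 1.09 CPM. Odc1, which makes putrescine from ornithine, ran the other way, with 231 and 229 CPM in members against 286 and 343 CPM.

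Members differed among themselves in Ccl24 and Spp1. Ccl24 reached 3 UMIs or more in 34.8% of members with anti-PD-1 and 39.2% with isotype and was 0 in 53.7% and 46.8%. Spp1 reached 3 or more in 55.9% of members with anti-PD-1 and 53.9% with isotype. Both genes reached 3 in 22.6% of members with anti-PD-1 and 23.6% with isotype, and both were 0 in 19.4% and 17.2%. Against the members without Ccl24, those with 3 or more had 7 genes at least 2-fold higher and 7 at least 2-fold lower in both libraries, each 0.108% of 6482 genes, with Ccl24 itself, which the split fixes, among the higher ones. Platelet factor 4 (Pf4) was among the higher ones, with 400.3 CPM with anti-PD-1 and 352 CPM with isotype in Ccl24-high members against 124 and 157 CPM. Ccl7, a monocyte-attracting chemokine, had 639 and 414 CPM against 275 and 198 CPM. Neutrophil genes were among the lower ones, with Retnlg at 61.6 and 72.9 CPM in Ccl24-high members against 192 and 169.7 CPM. The same split by Spp1 gave 20 genes at least 2-fold higher (0.309% of 6465, Spp1 itself included) and 17 lower (0.263%). Mmp12 had 543 CPM with anti-PD-1 and 590.2 CPM with isotype in Spp1-high members against 211 and 258 CPM in members without Spp1. Plac8, a monocyte gene, had 845 and 608 CPM against 1738 and 1399 CPM. Spp1-high members were thus richer in Mmp12 and poorer in Plac8 in both libraries.

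Members were also ordered by their own Arg1 level, a gene of the rule, so the order and its lower edge are set by the choice of members. Because the Arg1 level per cell and depth were related (median depth 8189 UMIs in the lowest tertile and 5942 in the highest with anti-PD-1, and 9197.5 and 6010 with isotype), the tertiles were cut again within members of 5000 to 10000 UMIs, a range chosen after seeing the data. These hold 166 cells per tertile with anti-PD-1 and 185 or 186 with isotype. Median depth there still ran from 7521 to 7027.5 UMIs over the tertiles with anti-PD-1 and from 7810.5 to 6897 with isotype. Spp1 was 1204, 1836 and 2684 CPM from the lowest to the highest tertile with anti-PD-1, and 1219.7, 1631 and 3085 CPM with isotype. Ccl24 was 1470.2, 1877 and 2841 CPM with anti-PD-1 and 1848, 2176 and 3300.1 CPM with isotype. The summed hypoxia list was 20637, 23462 and 26164 CPM with anti-PD-1, and 20292, 23211 and 24564 CPM with isotype. All 3 were higher with each step of Arg1 in both libraries. Plac8 ran the other way, at 1361, 1171 and 789 CPM with anti-PD-1 and 1182, 797 and 675 CPM with isotype. The sums of the MHC class II and interferon-gamma lists were lowest in the highest tertile in both libraries. With isotype the MHC class II sum hardly differed between the lowest and middle tertiles, and the interferon-gamma sum did not step down there. MHC class II sums were 15731, 13061 and 8162 CPM with anti-PD-1 and 15717, 15707 and 9910.3 CPM with isotype. The interferon-gamma sum was 1458, 1158 and 715 CPM with anti-PD-1 and 918, 929.5 and 755 CPM with isotype. The interferon-gamma sums with anti-PD-1 lay above those with isotype in the lowest tertile and slightly below them in the highest, a difference that could not be tested.

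**Figure D4:**
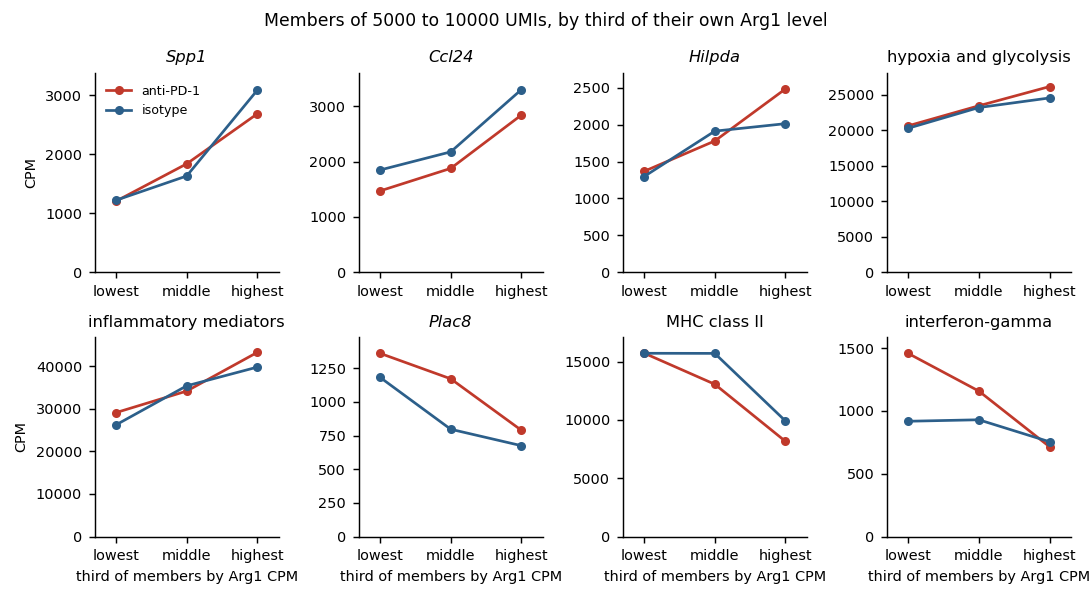
CPM of 3 genes of the Arg1-high state, of Plac8 and of 4 summed gene lists in tertiles of the members by their own Arg1 level, for members of 5000 to 10000 UMIs, with anti-PD-1 and isotype as separate lines. Spp1, Ccl24, Hilpda and the hypoxia and inflammatory sums are higher with each step in both libraries, and Plac8 is lower with each step.

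Between the treatments, the members differed little over all genes. Of 8600 genes with at least 50 UMIs over both libraries, 190 (2.21%) were at least 1.5-fold higher with anti-PD-1 and 148 (1.72%) at least 1.5-fold lower, together 3.93%, and the median of all genes was 0.04 on the log2 scale. With at least 200 UMIs required the counts were 44 higher and 25 lower, and with at least 10 UMIs 599 and 639. Above 0 were 57.5% of genes. Arg1 itself stood at 3583 CPM with anti-PD-1 and 3646 CPM with isotype (log2 ratio -0.02), a level that the rule bounds from below. Spp1 had a log2 ratio of -0.05 and Fn1 of 0.06, where the ratios of Arg1 and Spp1 took either sign over the alternative settings, and Ccl24 was lower with anti-PD-1, at 1898 CPM against 2298 CPM (-0.28, from -0.31 to -0.24).

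Interferon-gamma response genes had the highest list median. Of 22 measured genes 21 were higher with anti-PD-1 (57.5% of all genes), 8 at least 1.5-fold (2.21% of all genes). The list median was 0.45, and the summed list stood at 1171 CPM with anti-PD-1 and 892 CPM with isotype. Where at least 10 UMIs of Arg1 were required the median was 0.26, below the type I interferon list (0.38) and the inflammatory mediators (0.31). The type I list was also above it with a C1q sum under 8, with at least 200 UMIs per gene and with the rule applied after thinning to 5000 UMIs. Gbp2, an interferon-induced GTPase that acts against microbes inside cells, had 111 CPM with anti-PD-1 and 54.4 CPM with isotype, a log2 ratio of 1.03 (0.86 to 1.19), which was 0.57 with the rule applied after thinning to 5000 UMIs. The T cell-attracting chemokine Cxcl10 had 231 CPM with anti-PD-1 and 170.0 CPM with isotype (0.44, from 0.34 to 0.55). Ly6a, the surface protein Sca-1, had 85.4 CPM with anti-PD-1 and 50.4 CPM with isotype (0.76), but with at least 10 UMIs of Arg1 required its log2 ratio was 0.14. PD-L1, a ligand of PD-1 encoded by Cd274, had 225 CPM with anti-PD-1 and 207 CPM with isotype (0.12, from 0.03 to 0.22). The single lower gene was Ciita, the master regulator of class II genes, at 12.4 CPM with anti-PD-1 and 12.8 CPM with isotype (-0.05, from -0.47 to 0.37). The neighbours showed the same sign, with list medians of 0.38 in Arg1-high C1q-high cells, 0.66 in Arg1-low C1q-high macrophages and 0.62 in Ly6c2 monocytes. Among all genes, 59.6%, 58.1% and 62.2% were above 0 in these populations. All 3 neighbours thus had list medians of the same sign as the members.

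Type I interferon genes followed with 14 of 15 higher (57.5% of all genes) and a median of 0.36, 3 of them at least 1.5-fold (2.21% of all genes). Isg15, a ubiquitin-like modifier, had 197 CPM with anti-PD-1 and 155 CPM with isotype (log2 ratio 0.34). Rsad2, which encodes viperin, had 61.7 and 28.4 CPM (1.12), but 104 of its 429 UMIs with anti-PD-1 came from 1 cell, the ratio without the top cell of each library was 0.89, and with members thinned to 1000 UMIs the log2 ratio was 0.21. The median of the type I list was 0.52 without the limit on Cxcl9 and 0.227 for the mean of each cell's CPM.

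Inflammatory mediators were also higher with anti-PD-1, for 17 of 18 measured genes (57.5% of all genes were above 0), with a median of 0.30. Past 1.5-fold was 1 gene (2.21% of all genes were at least 1.5-fold higher). That gene, Cxcl1, encodes a neutrophil chemoattractant and had 718 CPM with anti-PD-1 and 445 CPM with isotype (0.69, from 0.63 to 0.75). It was under 1.5-fold with a C1q sum under 8 (0.566) and with members thinned to 1000 UMIs (0.573). Il6 had 254 CPM with anti-PD-1 and 171 CPM with isotype (0.57). Ptgs2, the inducible cyclooxygenase, had 1804 and 1295 CPM (0.48). Tnf had 261 CPM with anti-PD-1 and 190.5 CPM with isotype (0.46), and Il1b 8279.7 and 7257 CPM (0.19). The single lower gene was Il18, at 9.49 CPM with anti-PD-1 and 9.67 CPM with isotype. The neighbours showed the same sign. In Arg1-high C1q-high cells 18 of 18 mediators were higher, with a median of 0.37. In Arg1-low C1q-high macrophages 15 of 17 were higher (0.32), and in Ly6c2 monocytes 17 of 17 (0.19). Genes of tissue dissociation and cell stress were higher in members as well, for 14 of 17 with a median of 0.17. Their sum was 13360 CPM with anti-PD-1 and 12114 CPM with isotype, and their part in the inflammatory values was not tested.

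MHC class II genes were the list furthest below the rest, with all 8 measured genes lower with anti-PD-1 (42.5% of all genes were below 0), none past 1.5-fold, and a median of -0.20 (-0.308 with at least 10 UMIs of Arg1 and -0.13 with a C1q sum under 30). H2-Eb1 had 1429.8 CPM with anti-PD-1 and 1829.9 CPM with isotype (-0.36), and Cd74, the invariant chain, had 7276 and 8098 CPM (-0.15). Class I genes took the other side, with 12 of 13 higher and a median of 0.13, B2m among them at 1780.0 CPM with anti-PD-1 and 1625 CPM with isotype. Class II medians were also below 0 in Arg1-low C1q-high macrophages (-0.198, with 0 of 8 genes higher with anti-PD-1). The same held in Arg1-high C1q-high cells (-0.105, with 2 of 8 higher). In Ly6c2 monocytes class II genes were higher with anti-PD-1 for 7 of 9, with a median of 0.44. The class II median thus had opposite signs in members and monocytes, a difference that could not be tested with 1 library per treatment.

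**Figure D5:**
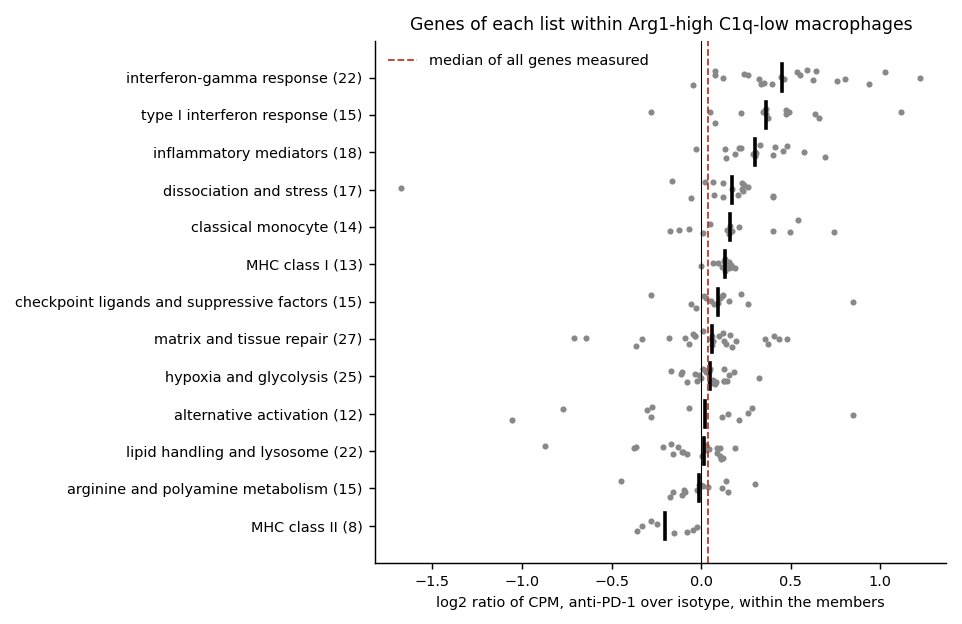
Log2 ratio of CPM, anti-PD-1 over isotype, within the members for each measured gene of 13 lists (points, spread vertically for visibility), with the list median as a bar, the number of measured genes in brackets and the median of all 8600 genes as a dashed line. The interferon-gamma list has the highest median (0.45) and MHC class II the lowest (-0.20).

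Monocyte genes were higher with anti-PD-1 in the members, for 11 of 14 measured genes (57.5% of all genes were above 0) with a median of 0.16. The median was 0.24 in Arg1-high C1q-high cells (12 of 13 higher) and 0.43 in Arg1-low C1q-high macrophages (13 of 14). In Ly6c2 monocytes it was 0.03 (9 of 15). In members Ly6c2 had 252 CPM with anti-PD-1 and 179 CPM with isotype (0.49, from 0.40 to 0.59). Plac8 had 1182 CPM with anti-PD-1 and 897 CPM with isotype (0.40). Ms4a4c, another gene of classical monocytes, had 106 and 73.0 CPM (0.54). Among alternative activation genes 6 were higher and 6 lower, with a median of 0.02 that was below 0 under TMM scaling (-0.014), and with Mgl2 at 43.8 CPM with anti-PD-1 and 91.0 CPM with isotype (-1.05, from -1.25 to -0.86) and Il10, an anti-inflammatory cytokine, at 21.7 and 12.1 CPM (0.85). The hypoxia list had 18 of 25 genes higher and a median of 0.05 (0.009 under TMM scaling). None of its genes passed 1.5-fold, and Hilpda had a log2 ratio of 0.14. Outside the list, Egln1, a prolyl hydroxylase that marks HIF for destruction, had 142.9 CPM with anti-PD-1 and 81.1 CPM with isotype (0.82, from 0.68 to 0.96), with 0.46, 0.62 and 1.064 in the neighbours. The matrix list had a median of 0.06, and its 2 genes past 1.5-fold were both lower, among them Mmp8, a collagenase, at 34.8 CPM with anti-PD-1 and 54.3 CPM with isotype. With members thinned to 1000 UMIs the matrix median was -0.059.

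Outside those lists, some of the widest ratios were shared by every neighbour. Brd1, a chromatin reader, had 42.3 CPM with anti-PD-1 and 22.2 CPM with isotype in members (0.93), with log2 ratios of 0.96, 0.97 and 1.21 in the 3 neighbours. Ppp2cb, a phosphatase subunit, had 118 and 68.4 CPM (0.79), with 0.82, 0.92 and 0.90. Ratios of this size were present in all 3 neighbours. Il23a, a subunit of interleukin-23, had 69.7 CPM with anti-PD-1 and 35.3 CPM with isotype (0.98), with 1.66, 1.33 and 1.09 in the neighbours. Areg, a growth factor of the EGF family, had 152 CPM with anti-PD-1 and 84.1 CPM with isotype (0.86), but was detected in only 8.21% and 6.64% of members. Its top cell held 65 of 1060 UMIs with anti-PD-1 and 101 of 731 with isotype. The Areg ratio lay between 0.68 and 1.05 over the settings run. Tnfsf9, the ligand of 4-1BB, had 221 CPM with anti-PD-1 and 134 CPM with isotype (0.72), with 0.91 in Arg1-high C1q-high cells, 0.41 in Arg1-low C1q-high macrophages and 0.15 in monocytes. With members thinned to 1000 UMIs its ratio in members was 0.446.

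On the lower side, several ratios rested on few cells. Hspb1, a small heat shock protein, had 60.4 CPM with anti-PD-1 and 193 CPM with isotype (-1.67) but was detected in only 3.20% and 3.87% of members, and the ratio was -1.08 with members thinned to 1000 UMIs. Saa3, an acute phase protein, had 8.63 and 23.02 CPM (-1.42), with 51 of its 200 UMIs with isotype in 1 cell, and the ratio was -0.567 with the rule applied after thinning to 5000 UMIs. The neutrophil granule gene Ngp had 52.5 CPM with anti-PD-1 and 84.6 CPM with isotype (-0.69), of which 1 cell held 180 of 365 UMIs with anti-PD-1 and 492 of 735 with isotype. As a mean of each cell's CPM, Ngp was higher with anti-PD-1 (0.17). Cd81, a tetraspanin, did not have this limit, at 42.6 CPM with anti-PD-1 and 69.5 CPM with isotype (-0.71) and detected in 16.6% and 24.4% of members, but its ratio was -0.445 with members thinned to 1000 UMIs. Shtn1 was detected in 9.91% of members with anti-PD-1 and 17.1% with isotype, at 15.2 and 27.3 CPM (-0.84), and its ratio was -0.582 for the mean of each cell's CPM. Pltp, a phospholipid transfer protein, had 18.3 CPM with anti-PD-1 and 33.4 CPM with isotype (-0.87), a ratio of -0.346 with members thinned to 1000 UMIs.

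The remaining lists are given by counts and medians, to be read beside 57.5% of all genes above 0 and a median of 0.04 over all genes. Of 16 chemokines 10 were higher with anti-PD-1 (median 0.16, or 0.089 with a C1q sum under 8), among them Ccl7 at 412 CPM with anti-PD-1 and 293 CPM with isotype (0.49). Ccl17, a ligand of the T cell receptor CCR4, had the lowest ratio of these, at 13.2 CPM with anti-PD-1 and 22.6 CPM with isotype (-0.77). Of 16 chemokine and growth factor receptors 11 were higher (median 0.12) and none passed 1.5-fold. Il1r2, the decoy receptor of interleukin-1, ran lower, at 426 CPM with anti-PD-1 and 541 CPM with isotype (-0.34). Among 21 transcription factors (12 higher, median 0.07), Xbp1, which directs secretory protein folding, had 318 and 247 CPM (0.37). Of 11 heme, iron and metal genes 8 were higher (median 0.10), but the metallothionein Mt1 had 1939.7 CPM with anti-PD-1 and 2439 CPM with isotype (-0.33). Lipid and lysosome genes were higher for 12 of 22 (median 0.01), arginine and polyamine genes for 7 of 15 (median -0.01) and checkpoint ligands and suppressive factors for 12 of 15 (median 0.09). The C1q macrophage programme had 7 of 17 higher, the neutrophil list 5 of 11 (median -0.07), and the cell cycle list 3 of 7. None of the 3 measured dendritic genes (median 0.08) passed 1.5-fold, nor did the single measured stroma gene (-0.08).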

How the data were processed

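Single-cell 3' libraries of live CD45+ cells from Hepa1-6 liver tumours were analysed, 1 per antibody. The deposited values are UMI counts per gene and barcode in filtered matrices, made with Cell Ranger 5.0.1 per the file headers and 2.1.1 per the submitters' processing notes, which also name the mm10 build; which version made these counts was not settled. The matrices hold 10149 barcodes with anti-PD-1 and 9683 with isotype, over 32285 features. The authors' dense tables of the same barcodes were not used here. Barcodes with at least 200 genes and at most 10% mitochondrial UMIs were kept.

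The members, and the 30 gene lists (390 of 393 genes matched), were chosen with earlier results of these data known. UMIs were summed per population and library and scaled to CPM. With 1 library per antibody no p-value was computed. Shares have exact Clopper-Pearson 95% intervals, differences of shares Newcombe intervals, and ratios exact conditional binomial intervals, all for counting error only. Genes needed at least 50 UMIs. For named genes, those of at least 20 CPM in the higher library were ranked by the interval bound nearest to 0, 12 each way. Against neighbours, genes of at least 100 CPM were ranked by the smaller log2 ratio of the 2 libraries, 12 each way. Mitochondrial, ribosomal, haemoglobin, sex-linked and unnamed genes were left out. A few genes that these rules or lists hold are not reported here. No doublets were removed. Alternatives changed the rule's limits, depth, doublets, scaling and the UMI minimum. The ratios and their intervals were tested on simulated library sums with Poisson counts, which hold no spread between cells. Thinning was tested on simulated counts, and the summation over cells was not tested. Intervals came from scipy 1.17.1, tables from pandas 2.3.3 and numpy 2.4.6 under Python 3.11.15, doublet scores from scanpy 1.11.5, TMM factors from edgeR 4.0.16 in R 4.3.3, and plots from matplotlib 3.10.9.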

Additional observations from a re-analysis of the deposited data

How the results depend on the processing

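The share difference was -1.96 points and lay between -2.66 and -1.67 under the other settings run, except -4.84 when the rule followed thinning to 5000 UMIs. Genes at least 1.5-fold higher numbered 190, but 599 with at least 10 UMIs per gene and 44 with at least 200, and lower ones numbered 148, but 639 and 25, and 95 with members thinned to 1000 UMIs; these minimums differ by construction in the genes counted. The type I interferon median of 0.36 was 0.52 with no limit on Cxcl9. Medians near 0 changed sign. The matrix median was -0.059 with members thinned to 1000 UMIs. The alternative activation median of 0.02 was -0.014 under TMM, -0.014 under median-of-ratios scaling, -0.015 for the mean of each cell's CPM and -0.075 with thinned members. The arginine median was 0.012 with Arg1 of at least 3 UMIs, 0.0064 with a C1q sum under 30, and 0.011 with thinned members. Single genes also changed sign: Ngp was 0.17 for the mean of each cell's CPM and 0.10 with thinned members, Arg1 0.063 with at least 10 UMIs of Arg1 and 0.011 with thinned members, and Spp1 0.044 with at least 10 UMIs of Arg1, 0.0013 with no limit on Cxcl9 and 0.039 with the rule after thinning. Where construction does not show it, the cause was not tested. No paired analysis was possible because each group is 1 library, and no library could be left out. Depth limits genes of few UMIs, and mice cannot be told apart from treatment.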
